A study of Mus musculus with 2 samples.

Results

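Replication-dependent histone genes encode the H1, H2A, H2B, H3 and H4 proteins that package newly copied DNA. They were taken from an mRNA-seq table of jejunal muscle wall (tunica muscularis) as every symbol that starts with *Hist1h*, *Hist2h*, *Hist3h* or *Hist4h*, which gave 59 genes of the 18159 listed. Of these, 6 were H1, 14 H2A, 17 H2B, 10 H3 and 12 H4 genes. The *Hist1* cluster on chromosome 13 held 48 of them, the *Hist2* cluster on chromosome 3 held 7, the *Hist3* cluster on chromosome 11 held 3, and *Hist4h4* lies on chromosome 6. The rule itself reads names and no measured value.

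The libraries came from C57BL/6 mice at postnatal day 15 (15 days of age), with 1 mRNA library for each genotype and 4 mice behind each per the methods, which do not say how their RNA was combined. *Dnmt1*-WT mice carried the smMHC Cre-eGFP/+ transgene, and *Dnmt1*-KO mice carried the same transgene together with *Dnmt1* lox/lox alleles, so Cre recombinase was present in both groups. The transgene is driven by a *Myh11* promoter, which is active in smooth muscle cells. As background, the muscle layer peeled from the mucosa also holds other cells, such as nerve, immune and endothelial cells. The genotypes are given here as the study describes them. The sample labels give *Dnmt1* lox/lox in the strain of both samples and the knockout in both descriptions, so the title and genotype label were used to tell them apart. With 1 library per genotype, there is no replicate error for any difference below and no p-value is given. In whole tissue, fewer cells of a type and less RNA per cell cannot be told apart.

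Most replication-dependent histone genes are transcribed as cells copy their DNA. Their mRNAs are the only animal mRNAs that normally lack a poly(A) tail and instead end just after a short stem-loop, which is bound by the stem-loop binding protein SLBP. Some of these genes are also known to give longer, polyadenylated transcripts in cells that have stopped dividing. The TruSeq RNA kit named in the labels captures RNA through poly(A), so the levels below are those of the captured RNA and not of all histone mRNA.

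The stem-loop is shown because it is the feature by which these mRNAs differ from others in a poly(A)-based library. The most frequent run of 16 bases in the annotated transcripts of the members (GENCODE M21, GRCm38) was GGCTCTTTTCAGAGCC. It occurred exactly in the longest transcript of 20 members, and 37 members had a match with at most 3 mismatches after the coding sequence of that transcript. *Hist1h2bp* had one in a shorter transcript only. Among 15983 other protein-coding genes, 2 had the exact run anywhere in the longest transcript (0.0125%) and 457 had it there with at most 3 mismatches (2.86%). That search also covered the coding sequence, so these shares are not limited to the position used for the members. Another form, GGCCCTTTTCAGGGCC, was found in 6 members, all of them H4 genes, and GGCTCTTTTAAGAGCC in 6 members, none of them an H4 gene. The most frequent form was also found in no H4 gene. Below, capitals mark the stem-loop match and the flanking bases are in lower case, 5′ to 3′ on the strand of the gene. The 7 genes are members described in the paragraphs that follow.
*Hist1h1c* (chr13:23739512-23739527, plus strand): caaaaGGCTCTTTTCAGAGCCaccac
*Hist3h2a* (chr11:58955172-58955187, plus strand): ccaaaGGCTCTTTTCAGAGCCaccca
*Hist3h2ba* (chr11:58949349-58949364, plus strand): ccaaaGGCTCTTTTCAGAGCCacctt
*Hist2h2ac* (chr3:96220418-96220433, minus strand): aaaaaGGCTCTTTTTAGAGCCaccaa
*Hist1h4h* (chr13:23531458-23531473, plus strand): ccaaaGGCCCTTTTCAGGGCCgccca
*Hist1h4i* (chr13:22040966-22040981, minus strand): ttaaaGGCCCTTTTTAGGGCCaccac
*Hist1h4d* (chr13:23581950-23581965, plus strand): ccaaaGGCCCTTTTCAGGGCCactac
*Hist1h2bc* and *Hist2h2be* each have 1 annotated transcript, and no match was found in it after the coding sequence, where these have 742 and 2192 bases after the coding sequence.

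Histone transcripts made up a small share of the libraries, 0.0387% of the FPKM sum in *Dnmt1*-WT and 0.0341% in *Dnmt1*-KO. FPKM divides the fragments of a gene by transcript length and library depth, so that levels can be set side by side between genes. Over the 59 genes the sum was 166.2 FPKM in *Dnmt1*-WT and 157.12 FPKM in *Dnmt1*-KO, a ratio of 0.945. A few genes carried most of this sum. The 6 most abundant, *Hist1h2bc*, *Hist1h1c*, *Hist3h2a*, *Hist2h2be*, *Hist1h4h* and *Hist3h2ba*, accounted for 88.4% of it in *Dnmt1*-WT and 88.8% in *Dnmt1*-KO, and the other 53 genes together went from 19.25 to 17.59 FPKM.

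In all, 15 members reached 1 FPKM in at least 1 library, or about 1 in 4, while 76.4% of all listed genes did. A value above 0 in both libraries was found for 29 members. A further 10 were above 0 only in *Dnmt1*-KO, 10 only in *Dnmt1*-WT, and 10 were listed at 0 in both, where the shares over all listed genes were 5.25%, 2.92% and 3.16%. Among all genes with a mean under 1 FPKM these shares were 19.4%, 10.9% and 12.2%, and all 30 of the members at 0 in a library had such a mean. Over the libraries, the median member was at 0.21 FPKM in *Dnmt1*-WT and at 0.20 FPKM in *Dnmt1*-KO, against 5.19 and 5.39 FPKM for all genes.

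**Figure D1:**
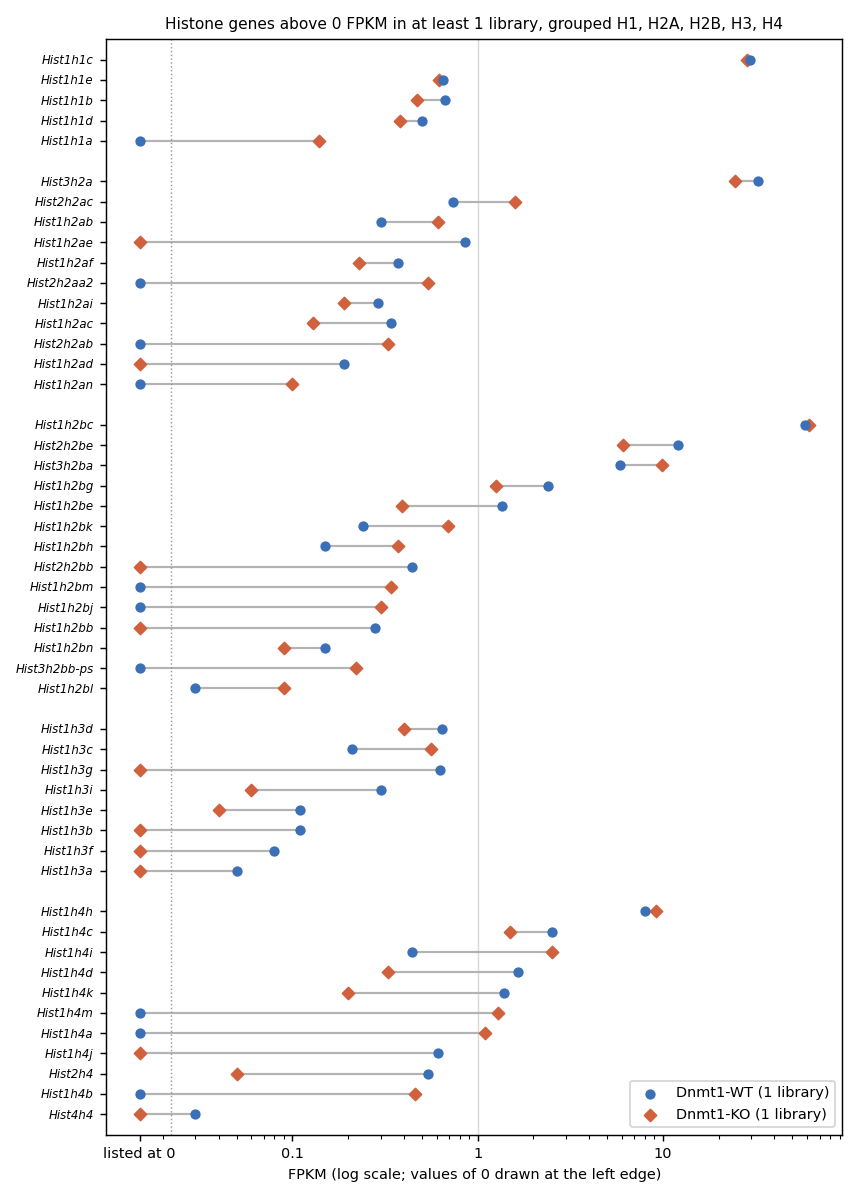
FPKM (log scale) of the 49 histone genes above 0 in at least 1 library, 1 row per gene grouped as H1, H2A, H2B, H3 and H4, with a circle for the *Dnmt1*-WT library and a diamond for the *Dnmt1*-KO library. Values of 0 are drawn at the left edge, and the vertical line at 1 FPKM has most genes to its left, with *Hist1h2bc* (58.78 and 61.38 FPKM) farthest right.

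H1 linker histones bind the DNA that enters and leaves the nucleosome. *Hist1h1c* (chr13:23738808-23740367, plus strand), which encodes H1.2, was listed at 29.39 FPKM in *Dnmt1*-WT and 28.32 FPKM in *Dnmt1*-KO. It was nearly equal in both libraries, with a log2 ratio of *Dnmt1*-KO to *Dnmt1*-WT of -0.05. *Hist1h1b*, *Hist1h1d* and *Hist1h1e* lay between 0.38 and 0.67 FPKM, and their log2 ratios were between -0.51 and -0.07. *Hist1h1a* was at 0 in *Dnmt1*-WT and 0.14 FPKM in *Dnmt1*-KO, and the testis histone *Hist1h1t* was listed at 0 in both. The class summed to 31.21 and 29.93 FPKM, almost all of it from *Hist1h1c*.

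H2A and H2B form the dimers that flank the central H3 and H4 tetramer of the nucleosome. The most abundant H2A gene was *Hist3h2a* (chr11:58954685-58956830, plus strand), at 32.79 FPKM in *Dnmt1*-WT and 24.63 FPKM in *Dnmt1*-KO, a log2 ratio of -0.41. Its annotated span overlaps *Trim17* and *Gm44313*, and where the counting ignores strand reads of these genes cannot be separated. *Hist2h2ac* (chr3:96220361-96220880, minus strand) went the other way, from 0.74 to 1.6 FPKM (log2 ratio 1.11). The other 12 H2A genes stayed under 1 FPKM, among them *Hist1h2ae* (0.85 and 0 FPKM), *Hist1h2ad* (0.19 and 0), *Hist2h2aa2* (0 and 0.54), *Hist2h2ab* (0 and 0.33) and *Hist1h2an* (0 and 0.1). The H2A sum was 35.87 and 28.36 FPKM, a ratio of 0.791 that followed *Hist3h2a*.

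H2B was the class with the highest sum, 81.8 FPKM in *Dnmt1*-WT and 81.18 FPKM in *Dnmt1*-KO. *Hist1h2bc* (chr13:23684199-23692908, plus strand) held most of it, at 58.78 and 61.38 FPKM (log2 ratio 0.06). Its position among the 18159 genes by mean FPKM was 1138, the highest of any member. *Hist2h2be* (chr3:96221119-96223738, plus strand) was listed at 12.11 FPKM in *Dnmt1*-WT and 6.11 FPKM in *Dnmt1*-KO. At a log2 ratio of -0.99 it had the largest ratio difference among the 6 abundant genes and fell just short of 2-fold. It passed 2-fold when libraries were scaled by FPKM sum (-1.09) or centred by transcript length (-1.07). It stayed short of it after median centring and upper quartile scaling (-0.96 in each) and with pseudocounts of 0.1 (-0.98) and 1 FPKM (-0.88). *Hist3h2ba* (chr11:58948920-58949533, plus strand), from the same cluster as *Hist3h2a*, was higher in *Dnmt1*-KO, at 9.94 against 5.87 FPKM (log2 ratio 0.76). *Hist1h2bg* was at 2.39 FPKM in *Dnmt1*-WT and 1.26 FPKM in *Dnmt1*-KO, and *Hist1h2be*, whose annotated span overlaps *Hist1h1e*, at 1.36 and 0.39 FPKM. *Hist1h2bm*, *Hist1h2bj* and *Hist3h2bb-ps* were at 0 in *Dnmt1*-WT and at 0.34, 0.3 and 0.22 FPKM in *Dnmt1*-KO, whereas *Hist2h2bb* and *Hist1h2bb* were at 0.44 and 0.28 FPKM in *Dnmt1*-WT but listed at 0 in *Dnmt1*-KO. The abundant H2B genes thus differed in direction, and their sum moved by less than any of them.

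H3 and H4 make up the core tetramer. None of the 10 H3 genes reached 1 FPKM in either library, and the class summed to 2.13 FPKM in *Dnmt1*-WT and 1.06 FPKM in *Dnmt1*-KO. Only *Hist1h3c* had a higher value in *Dnmt1*-KO (0.21 and 0.56 FPKM). *Hist1h3d*, *Hist1h3e* and *Hist1h3i* were lower there, *Hist1h3a*, *Hist1h3b*, *Hist1h3f* and *Hist1h3g* were above 0 in *Dnmt1*-WT alone, at 0.05, 0.11, 0.08 and 0.63 FPKM, and *Hist1h3h* and *Hist2h3b* were at 0 in both.

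Counted over either library, H4 had more members that reached 1 FPKM than any other class, 7 of 12. In *Dnmt1*-WT alone, more H2B than H4 genes reached it. *Hist1h4h* (chr13:23531050-23531519, plus strand) was at 8.01 FPKM in *Dnmt1*-WT and 9.15 FPKM in *Dnmt1*-KO. *Hist1h4i* (chr13:22040636-22041362, minus strand) went from 0.44 to 2.53 FPKM, the highest log2 ratio of any member at 2.52. *Hist1h4m* and *Hist1h4a* were listed at 0 in *Dnmt1*-WT and at 1.28 and 1.10 FPKM in *Dnmt1*-KO. Lower values in *Dnmt1*-KO were found for *Hist1h4c* (2.53 and 1.49 FPKM), *Hist1h4d* (1.65 and 0.33), *Hist1h4k* (1.38 and 0.20), *Hist1h4j* (0.61 and 0) and *Hist2h4* (0.54 and 0.05). *Hist1h4b* was at 0 in *Dnmt1*-WT and 0.46 FPKM in *Dnmt1*-KO. All 12 H4 genes encode the same annotated protein of 103 residues, and their sum was 15.19 FPKM in *Dnmt1*-WT and 16.59 FPKM in *Dnmt1*-KO, a ratio of 1.09. Single H4 genes above 0 in both libraries thus had log2 ratios from -3.43 (*Hist2h4*) to 2.52 (*Hist1h4i*), beside class sums that were nearly equal.

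**Figure D2:**
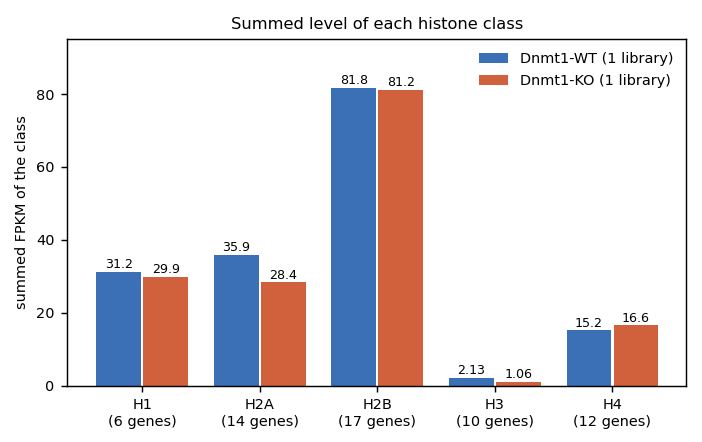
Summed FPKM of each histone class in the *Dnmt1*-WT and *Dnmt1*-KO library, with bars from 0 and the number of genes under each class. H2B has the highest sum (81.8 and 81.2 FPKM) and H3 the lowest (2.13 and 1.06 FPKM), and the largest difference in FPKM is in H2A (35.9 and 28.4 FPKM).

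By cluster, the *Hist1* genes summed to 113.68 FPKM in *Dnmt1*-WT and 113.7 FPKM in *Dnmt1*-KO. The *Hist2* genes summed to 13.83 and 8.63 FPKM, a ratio of 0.624 that followed *Hist2h2be*, and the *Hist3* genes to 38.66 and 34.79 FPKM. *Hist4h4* was at 0.03 FPKM in *Dnmt1*-WT, the lowest value above 0 in the table, and at 0 in *Dnmt1*-KO.

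A ratio of 2 or more was found for 7 of the 29 members above 0 in both libraries, where 11.8% of all such genes had one. The doubled members were *Hist1h4i*, *Hist2h2ac*, *Hist1h2bk*, *Hist1h2ab*, *Hist1h3c*, *Hist1h2bh* and *Hist1h2bl*. A ratio of 0.5 or less was found for another 7, against 4.98% of all genes. The halved members were *Hist1h2be*, *Hist1h4d*, *Hist1h4k*, *Hist1h2ac*, *Hist1h3i*, *Hist2h4* and *Hist1h3e*. Each count is 24.1% of the 29. Some of these calls rest on very low values in *Dnmt1*-WT and *Dnmt1*-KO, such as *Hist1h2bl* (0.03 and 0.09 FPKM), *Hist1h2bh* (0.15 and 0.37) and *Hist1h3e* (0.11 and 0.04). The balance depended on the scaling. Both counts stayed at 7 when the median log2 ratio was set to 0 and when the upper quartiles were made equal. After division by the FPKM sum 6 doubled and 9 were halved or lower (all genes 10.4% and 6.06%), and after centring in bins of transcript length 5 doubled and 11 were halved or lower (all genes 11.0% and 4.93%). Of the 29, 10 had a ratio above 1 and 19 a ratio below 1, against 50.3% and 49.1% of all genes. When 0.1 FPKM was added to every value, so that all 59 members entered, 14 at least doubled and 12 were halved or lower (all genes 12.0% and 4.67%), and with 1 FPKM added 3 doubled and none was halved (all genes 4.73% and 1.64%).

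The median log2 ratio of the 29 members was -0.51, with a range from -3.43 for *Hist2h4* to 2.52 for *Hist1h4i*, while that of all genes was 0.0050. The spread was wider at low values. Of the 10 members with a mean of 1 FPKM or more, 5 had a ratio above 1 and 5 below, 2 had doubled, none was halved, and their median log2 ratio was 0.0045. The doubled members, *Hist1h4i* and *Hist2h2ac*, were under 1 FPKM in *Dnmt1*-WT and reached this mean only through the *Dnmt1*-KO library. The shares doubled and halved among all genes at that level were 7.99% and 3.38%. At a mean of 0.3 FPKM or more, 5 of 21 members doubled and 3 were halved or lower (all genes 10.3% and 4.10%). Of the 19 with a mean under 1 FPKM and above 0 in both libraries, 5 had a ratio above 1 and 14 below, with a median of -0.68. Among all genes of that kind 60.1% had a ratio above 1 and 37.5% below. Within the 19, 5 doubled and 7 were halved or lower, against 30.4% and 12.9% of all genes of that level. The table gives no read counts, and no counting error was attached to these low values.

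Members that encode one protein were then summed, because reads can be split between near-identical copies. Identical annotated proteins were shared by 37 members in 6 groups. *Hist1h2bc*, *Hist1h2bg* and *Hist1h2be* summed to 62.53 FPKM in *Dnmt1*-WT and 63.03 FPKM in *Dnmt1*-KO. Of the H3 genes, the group of 6 that includes *Hist1h3c* summed to 1.15 and 1 FPKM, and the group of 4 that includes *Hist1h3g* to 0.98 and 0.06 FPKM. A group of 7 H2A genes summed to 1.97 and 1.03 FPKM, and a group of 5 H2B genes to 0.18 and 0.48 FPKM. With each group counted once beside the members outside the groups, 17 units were above 0 in both libraries, of which 4 had a ratio of 2 or more and 1 a ratio of 0.5 or less, beside 11.8% and 4.98% of all genes taken singly.

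No pair of listed members had identical coding bases, but *Hist1h4m*, *Hist2h2aa2* and *Hist1h2br* are each identical over the coding sequence to an annotated gene outside the table (*Hist1h4n*, *Hist2h2aa1* and *Hist1h2bq*), and 41 of the 50 with an identity value were at least 95% identical to another gene over the coding sequence. In the median member, 49.3% of all runs of 50 bases in its longest transcript occurred in another annotated gene, on either strand. In 27 members 50% or more of them did. Genes at the same locus were counted too, and 19 members overlap another annotated gene. The share was lowest for H1, with a median of 1.13%, and highest for H2A, with 66.0%. Among genes named above it was 0% for *Hist2h2be*, 8.54% for *Hist1h1c*, 10.2% for *Hist1h4d*, 28.9% for *Hist1h4i*, 30.6% for *Hist1h2bc*, 45.8% for *Hist1h4h*, 55.0% for *Hist2h2ac*, 71.5% for *Hist1h4k* and 89.8% for *Hist1h4m*. The values of *Hist1h4k*, *Hist1h4m*, *Hist2h2ac* and *Hist2h2aa2* are therefore uncertain as those of single genes. *Hist2h2ac* overlaps *Gm44492*, and its best coding identity to another histone gene was 82.8%. How shared reads were assigned is not given in the sources used here, and their part in the value of any member was not tested.

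The level of the members was next set against their annotated 3′ ends. In 20 members the annotated transcript runs more than 100 bases past the stem-loop, and 9 of these reached 1 FPKM. Their sum was 80.31 FPKM in *Dnmt1*-WT and 71.98 FPKM in *Dnmt1*-KO, or 48.3% and 45.8% of all members. In 17 members it ends within 100 bases, and 3 of these, *Hist1h4h*, *Hist2h2ac* and *Hist1h4m*, reached 1 FPKM. This group summed to 10.76 and 15.07 FPKM, or 6.47% and 9.59%. A further 13 members had a gene model that stops at or just after the coding sequence, with 1, *Hist1h4k*, at 1 FPKM or more and sums of 3.63 and 1.76 FPKM. The other 9 without a match included *Hist1h2bc* and *Hist2h2be* and summed to 71.5 and 68.31 FPKM. The 6 most abundant members had between 93 bases (*Hist1h4h*) and 2192 bases (*Hist2h2be*) after the coding sequence, with 213 for *Hist3h2ba*, 742 for *Hist1h2bc*, 880 for *Hist1h1c* and 1700 for *Hist3h2a*. The stem-loop of *Hist3h2a* is followed by 1643 annotated bases and that of *Hist1h1c* by 840. These comparisons are a description across genes, which are not independent replicates.

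**Figure D3:**
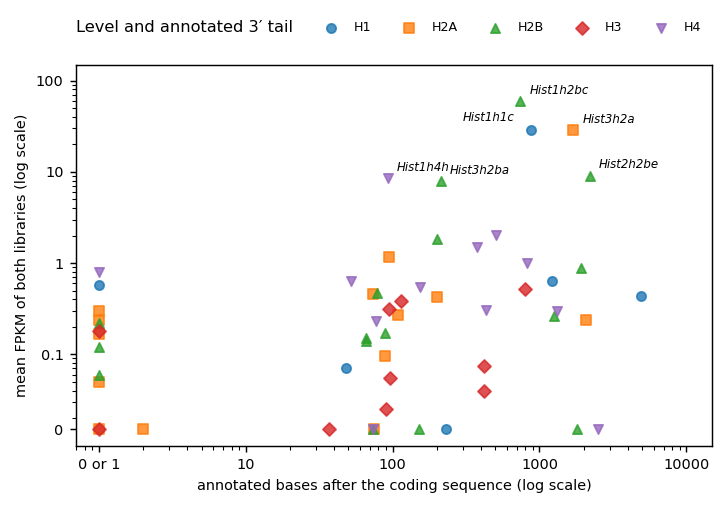
Mean FPKM of both libraries (log scale) against the number of annotated bases after the coding sequence (log scale) for the histone genes with a coding annotation, 1 symbol per gene and class. *Hist1h2bc*, *Hist1h1c*, *Hist3h2a* and *Hist2h2be* lie at 742 to 2192 bases, while members with 0 or 1 base all have a mean under 1 FPKM.

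The length used for the FPKM denominator bears on these levels, and the annotation behind the deposited values is not given in the sources used here. *Hist3h2a* spans 2146 bases in GENCODE and 508 in RefSeq, *Hist1h1c* 1560 and 725, and *Hist1h4i* 727 and 403, whereas *Hist2h2be* is alike in both, at 2620 and 2667 bases. A level of one gene against another therefore depends on the gene model. *Hist1h2bc* was given 2 transcript variants in *Dnmt1*-WT and 1 in *Dnmt1*-KO, *Hist3h2a* 2 in each, and *Hist2h2be*, *Hist1h1c*, *Hist1h4h*, *Hist1h4i* and *Hist3h2ba* 1 in each.

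Many H2A and H2B genes lie head to head, and 11 pairs of members had start sites within 1000 bases of each other on opposite strands. In the pairs given below the partners differed in level, while in some of the others both partners were at 0 in a library. *Hist2h2be* and *Hist2h2ac* are 238 bases apart. *Hist2h2be* was listed at 12.11 and 6.11 FPKM, whereas *Hist2h2ac* was at 0.74 and 1.6 FPKM, so the pair differed in direction. *Hist1h2bc* and *Hist1h2ac* are 250 bases apart, at 58.78 and 61.38 FPKM for the former and 0.34 and 0.13 FPKM for the latter. *Hist1h2bg* and *Hist1h2ae*, 175 bases apart, were both lower in *Dnmt1*-KO (2.39 and 1.26 FPKM, 0.85 and 0 FPKM). *Hist3h2a* and the pseudogene *Hist3h2bb-ps*, 172 bases apart, were at 32.79 and 24.63 FPKM and at 0 and 0.22 FPKM.

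The regions between the first 2 of these pairs are printed because each lies between genes of a pair that differ in level. They are the RefSeq promoter windows (GRCm38.p6) of *Hist2h2ac* and *Hist1h2ac*, from 250 bases before to 50 after the start site, 5′ to 3′ on the strand of the named gene, and the opposite gene starts near the 5′ end of each window. Capitals mark CCAAT and TATAAA on either strand (ATTGG and TTTATA on the other).
*Hist2h2ac* (chr3:96220831-96221130, minus strand): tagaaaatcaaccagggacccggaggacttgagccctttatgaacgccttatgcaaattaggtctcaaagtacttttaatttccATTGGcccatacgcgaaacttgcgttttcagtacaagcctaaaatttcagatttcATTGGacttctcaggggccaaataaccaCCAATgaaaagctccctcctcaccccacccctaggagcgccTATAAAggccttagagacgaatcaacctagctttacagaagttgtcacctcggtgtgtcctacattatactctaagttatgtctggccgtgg
*Hist1h2ac* (chr13:23683910-23684209, minus strand): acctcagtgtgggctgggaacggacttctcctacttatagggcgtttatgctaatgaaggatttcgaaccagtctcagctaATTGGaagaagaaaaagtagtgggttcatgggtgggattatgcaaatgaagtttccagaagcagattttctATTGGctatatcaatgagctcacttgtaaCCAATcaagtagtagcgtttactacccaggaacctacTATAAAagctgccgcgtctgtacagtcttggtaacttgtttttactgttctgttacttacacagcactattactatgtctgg
Each window holds 3 CCAAT and 1 TATAAA. Over the 54 windows matched to 53 members, 46 held CCAAT (85.2%) and 31 held TATAAA (57.4%), against 37.4% and 13.6% of all 32851 windows of that length. A match of letters is a description and not a binding site.

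Other histone genes and the genes that act on histone mRNA are given for comparison. Variant histones, which are mostly replication-independent and have mostly polyadenylated mRNAs, were far more abundant. They summed to 903.79 FPKM in *Dnmt1*-WT and 960.53 FPKM in *Dnmt1*-KO over 13 genes. *H3f3a* and *H3f3b*, which encode H3.3, were at 333.83 and 307.26 FPKM and at 190.35 and 249.62 FPKM, while the 10 replication-dependent H3 genes together stayed near 2 FPKM or below. *H2afx*, whose mRNA occurs both with a stem-loop end and with poly(A), was at 20.4 FPKM in *Dnmt1*-WT and 32.22 FPKM in *Dnmt1*-KO. Of the 11 variant histone genes above 0 in both libraries, 1 at least doubled (9.09%) and none was halved, against 11.8% and 4.98% of all genes. It was *Cenpa*, the centromeric H3 (4.09 and 9.6 FPKM).

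Among 19 genes of histone mRNA transcription, 3′ processing and decay, none doubled or was halved, 4 had a ratio above 1 and 15 below, and the median log2 ratio was -0.21. Of all genes, 11.8% doubled, 4.98% were halved, 50.3% had a ratio above 1 and 49.1% a ratio below 1. *Slbp*, which encodes the stem-loop binding protein, was at 10.74 FPKM in *Dnmt1*-WT and 12.45 FPKM in *Dnmt1*-KO. *Npat*, which activates histone transcription, was at 3.66 and 2.91 FPKM, and *Casp8ap2*, another component of the histone locus body, at 2.2 and 2.0 FPKM. *Lsm10* and *Lsm11*, subunits of the U7 particle that cuts histone pre-mRNA, were at 13.85 and 10.38 FPKM and at 2.27 and 1.63 FPKM. Histone chaperones, 16 genes, were split evenly, with a median of -0.05.

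The S-phase and mitosis genes of the same libraries were mostly higher in *Dnmt1*-KO. Of 22 S-phase genes, 20 had a ratio above 1 and 3 at least doubled (13.6%, all genes 11.8%), with a median log2 ratio of 0.43, and *Pcna*, the sliding clamp of the replication fork, was at 38.31 and 45.52 FPKM. All 12 mitosis genes had a ratio above 1 and 6 at least doubled (50%, all genes 11.8%), with a median of 1.07. Of 8 genes of the cyclin E and E2F input to S phase, 5 were above 1 and 3 below. No test of the difference between these lists and the histone genes was made.

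**Figure D4:**
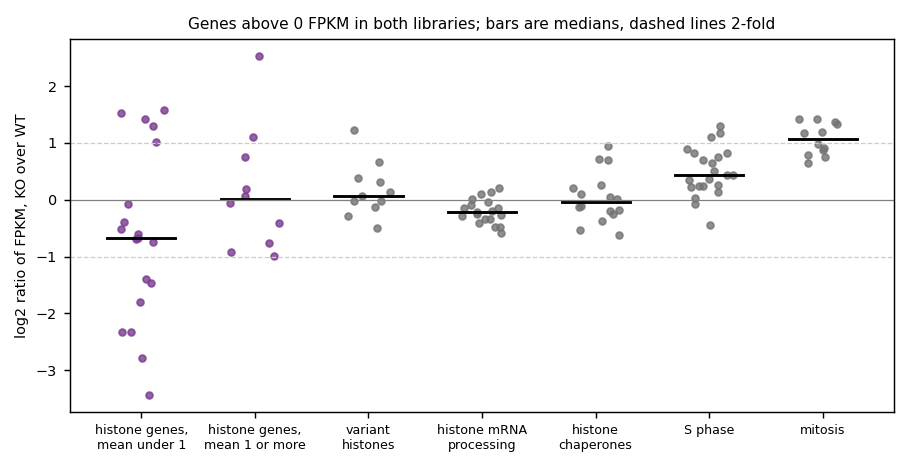
Log2 ratio of *Dnmt1*-KO to *Dnmt1*-WT FPKM for genes above 0 in both libraries, 1 point per gene, bars at the median and dashed lines at 2-fold. Histone genes with a mean under 1 FPKM spread from -3.43 to 1.58 around a median of -0.68, those of 1 FPKM or more have a median near 0, and the S-phase and mitosis genes have medians of 0.43 and 1.07.

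Markers of several cell types also differed between the libraries. The deleted gene, *Dnmt1*, was at 11.58 and 7.58 FPKM in *Dnmt1*-WT and *Dnmt1*-KO. All 8 smooth muscle markers were present and lower in *Dnmt1*-KO (sums of 19421 and 13297 FPKM, 3 halved), while all 8 leukocyte markers at least doubled (41.01 and 132.84 FPKM), as did 7 of 8 macrophage markers (135.63 and 488.32 FPKM). The shares over all genes were 4.98% halved and 11.8% at least doubled. Erythroid markers summed to 43.72 and 229.04 FPKM, crypt epithelium to 40.2 and 47.19 FPKM with 2 doubled and 2 halved, B cell markers to 1.07 and 3.08 FPKM with *Pax5* at 0 in both, T cell markers to 1.06 and 5.39 FPKM, and germ cell markers to 1.47 and 0.26 FPKM. Of the RNAs that carry no poly(A) tail, *Rpph1* was at 40.82 FPKM in *Dnmt1*-WT and 125.21 FPKM in *Dnmt1*-KO, *Rmrp* at 9.34 and 23.64 FPKM, and *Terc* at 0.08 and 0 FPKM. The part of these differences in the histone values was not tested.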

How the data were processed

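The authors prepared TruSeq RNA libraries from jejunal tunica muscularis RNA, and per the labels used TopHat 1.4.1 and Cufflinks 2.0.2 on mm10. The annotation, the treatment of reads that map to several genes and strand are not given in the sources used here. The authors deposited 1 table with the FPKM and the number of transcript variants of each gene in each library, and a ratio of their own that was not used. The table gives no read counts per gene, and no counting interval was computed. In each library the smallest value above 0 was 0.03 FPKM.

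Ratios are plain FPKM ratios of *Dnmt1*-KO to *Dnmt1*-WT over genes above 0 in both libraries, without pseudocount. The background is the same count over all genes. Members were matched by symbol to GENCODE M21 and RefSeq GRCm38.p6 (59 of 59 in both). A further 11 annotated *Hist* genes were not analysed here. Stem-loops, shared runs of 50 bases and identities were computed from the GENCODE transcripts with Python 3.11.15, numpy 2.4.6 and Biopython 1.88, and figures were drawn with matplotlib 3.10.9.

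Members were named when they reached 1 FPKM in a library or were at 0 in only 1 library. *Hist1h1t* was named as a testis histone. All other members named were picked after seeing their values. The members and all gene lists were chosen with earlier results of these data known. Alternatives were 3 scalings between libraries, centring in 10 bins of transcript length, and pseudocounts of 0.1 and 1 FPKM. Others were minimum means of 0.3 and 1 FPKM, summing genes of identical protein, and leaving out the testis histones or the most abundant member. Of the testis histones only *Hist1h1t* was listed, at 0 in both libraries, so leaving it out could not change any result.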

Additional observations from a re-analysis of the deposited data

How the results depend on the processing

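No paired analysis was possible because each genotype has 1 library, and for the same reason no library could be left out. The count of members at least doubled, 7 as reported, was 14 with a pseudocount of 0.1 and 3 with a pseudocount of 1 (all genes 12.0% and 4.73%), 2 of 10 at a mean of 1 FPKM or more (all genes 7.99%) and 4 of 17 with identical proteins summed. The count at most halved, also 7, was 11 after centring in length bins, where 5 doubled (all genes 4.93% and 11.0%), and 9 by FPKM sum, where 6 doubled. It was 12 and 0 with the pseudocounts (all genes 4.67% and 1.64%), 3 of 21 and 0 of 10 at means of at least 0.3 and 1 FPKM (all genes 4.10% and 3.38%), and 1 of 17 with identical proteins summed. The pseudocounts bring in the members at 0 in a library. Both counts stayed at 7 after median centring and after upper quartile scaling. The median log2 ratio, -0.51, was -0.48 after median centring and after upper quartile scaling, -0.61 by FPKM sum, -0.79 in length bins, 0 with either pseudocount, 0.0045 and -0.40 at means of at least 1 and 0.3 FPKM, -0.068 with identical proteins summed and -0.56 without *Hist1h2bc*. The ratio of summed FPKM, 0.945, was 0.965 after median centring and after upper quartile scaling, 0.881 by FPKM sum, 0.808 in length bins, 0.957 at a mean of at least 1 FPKM and 0.891 without *Hist1h2bc*, and stayed below 1 in each. It was not computed with a pseudocount. *Hist1h2bc* itself was higher in *Dnmt1*-KO, so leaving it out could only lower the ratio of summed FPKM. Genes of the shortest length bin, which holds 48 members, had a median log2 ratio of 0.28. Among members that reached 1 FPKM in at least 1 library and were above 0 in both, the log2 ratio changed sign across the 6 scaling, length and pseudocount settings for *Hist1h2bc* (-0.22 to 0.09) and *Hist1h4h* (-0.09 to 0.22). The 5 of these past 2-fold (*Hist1h4i*, *Hist2h2ac*, *Hist1h2be*, *Hist1h4d* and *Hist1h4k*) reached 1 FPKM only in the library where they were higher, so that filter bears on their direction. Of the 5, 1 (*Hist1h4i*) was past 2-fold in all 6 settings. With a pseudocount of 1 the log2 ratio was 0.58 for *Hist2h2ac*, which was at 0.83 in length bins, -0.76 for *Hist1h2be*, and -0.99 for both *Hist1h4d* and *Hist1h4k*. The causes of these shifts were not tested.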
